A study of Mus musculus with 16 samples.

Results

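Cholesterol genes of the injured mouse striatum are described here as a list of 38 genes that make, sense, move, export or hydroxylate cholesterol. They were taken by gene symbol from a table of read counts for 19457 genes, and all 38 were present. All 38 also passed the filter on low counts, which left 18813 genes for testing. By role the list holds 7 enzymes of the early mevalonate pathway, 11 enzymes that lead from squalene to cholesterol, 5 genes of SREBP regulation, 4 genes of intracellular transport and esterification, 5 genes of LXR signalling and efflux, 3 lipoprotein genes and 3 cholesterol hydroxylases.

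RNA was sequenced from the striatum in 16 libraries, 2 for each of 8 groups. GS mice were sampled intact and at 6 h, 3 d and 15 d after 0.8 µl of 500 mM ATP had been injected on one side of the striatum, and WT mice were sampled at the same 4 stages. GS was read as the LRRK2 G2019S genotype that the series title names, a mutation of a kinase linked to Parkinson's disease. The labels do not give how the mutation was introduced, the age of the mice, or whether tissue of several mice was pooled. Intact striatum is labelled as untreated and no vehicle group was analysed here, so the effects of ATP and of the injection itself cannot be told apart. The comparisons ask how the list answered the injury in each genotype and whether the genotypes differed, and the 3 times of a genotype share its 2 intact libraries.

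Little cholesterol passes from the blood into the brain, so brain cells make their own, chiefly astrocytes and oligodendrocytes. SREBP transcription factors, which the Insig proteins hold in the endoplasmic reticulum through Scap while sterol is plentiful, switch on the enzymes of synthesis when sterol falls. Liver X receptors, which oxysterols activate, do the reverse by switching on export through ABC transporters onto apolipoprotein E, and phagocytes that take up myelin depend on that export, on lysosomal release and on storage as esters. Neurons dispose of cholesterol through 24-hydroxylation by Cyp46a1.

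Levels are given as TMM-normalised CPM (read counts scaled to a common library size), for the 2 libraries of a group in replicate order. Changes are log2 fold changes ± SE from edgeR's quasi-likelihood test over all 16 libraries. A gene was called changed where its p-value, adjusted by the Benjamini-Hochberg method over the 18813 genes, was under 0.05. All adjusted p-values below are of that kind unless another tool is named. The libraries held 49220578 to 63948110 counts. In bulk tissue, fewer cells of a type and less RNA per cell cannot be told apart.

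The 8 markers of striatal projection neurons summed to 6086 to 10560 CPM over the 16 libraries. Some libraries stood apart. The summed level of 8 cortical excitatory neuron markers was 332.6 CPM in WT intact replicate 1 and 168.4 CPM in WT intact replicate 2. The summed level of 5 choroid plexus markers was 406.7 CPM in GS intact replicate 1 and 86.1 CPM in GS intact replicate 2. Haemoglobin genes summed to 27.7 to 58.9 CPM at 6 h, against 3.34 to 5.82 CPM in intact striatum. Lrrk2, whose level does not check a point mutation, had 168 and 217 CPM in intact GS striatum and 135 and 163 CPM in intact WT striatum.

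At 6 h few of the cholesterol genes had changed, and at 3 d and 15 d the list had divided: the synthesis enzymes called at those times were all lower, while Npc2, Soat1, Abca1, Mylip, Apoc1 and Ch25h were higher at both times in both genotypes. In GS striatum at 6 h 3 members were higher (Fdft1, Lss and Ch25h, 7.89% of the list) and 2 were lower (Srebf2 and Cyp46a1, 5.26%), where 7.47% of all tested genes were higher and 6.37% lower, so these shares lie near the background. In WT striatum at 6 h 1 member was higher (Ch25h, 2.63%) and 0 were lower, where 2.54% of all tested genes were higher and 1.55% lower, again near the background. DESeq2 and limma-voom called 1 and 0 members there. An unadjusted p under 0.05 in edgeR was reached there by 6 members and by 3841 of the 18813 tested genes. With 1 library left out the count called in GS was 1 to 3, and in WT it was 0 without WT intact replicate 1. With only the groups compared in the model, 10 members were called in GS and 3 in WT.

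At 3 d the share of members called lower lay above that of all tested genes in both genotypes, a difference that was not tested. In GS striatum 14 members were lower (36.8%), where 16.4% of all tested genes were, and 8 were higher (21.1%), where 18.6% were. In WT striatum 10 members were lower (26.3%), where 12.7% of all tested genes were, and 6 were higher (15.8%), where 14.7% were. The shares higher at 3 d were thus close to the background in both genotypes. The median log2 fold change of the list was -0.18 in GS and -0.20 in WT, and over all tested genes it was -0.01 in both. The number of members called was 22 in GS and 14 there without GS 3 d replicate 2, and it was 16 in WT and 10 there without WT intact replicate 1.

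At 15 d in GS striatum 11 members were lower (28.9%), where 17.6% of all tested genes were, and 9 were higher (23.7%), where 19.4% were. In WT striatum at 15 d 11 members were lower (28.9%), where 11.2% of all tested genes were, and 9 were higher (23.7%), where 14.2% were. The median log2 fold change of the list was -0.16 in GS and -0.02 in WT, and over all tested genes it was -0.01 in GS and -0.02 in WT. In WT 20 members were called, against 12 without WT intact replicate 1 and 12 without WT 15 d replicate 2.

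Counted over the 6 injury comparisons, 16 members were called only lower after injury, 10 only higher and 2 (Fdft1 and Lss) both ways at different times, while 10 were called at no time. The genotypes had no libraries in common, and no member was called in opposite directions in them. At 3 d the 14 members called in both were 6 that rose and 8 that fell, and at 15 d the 19 called in both were 9 that rose and 10 that fell. The counts of this paragraph were not made over all tested genes, so they do not set the members apart from other genes.

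**Figure D1:**
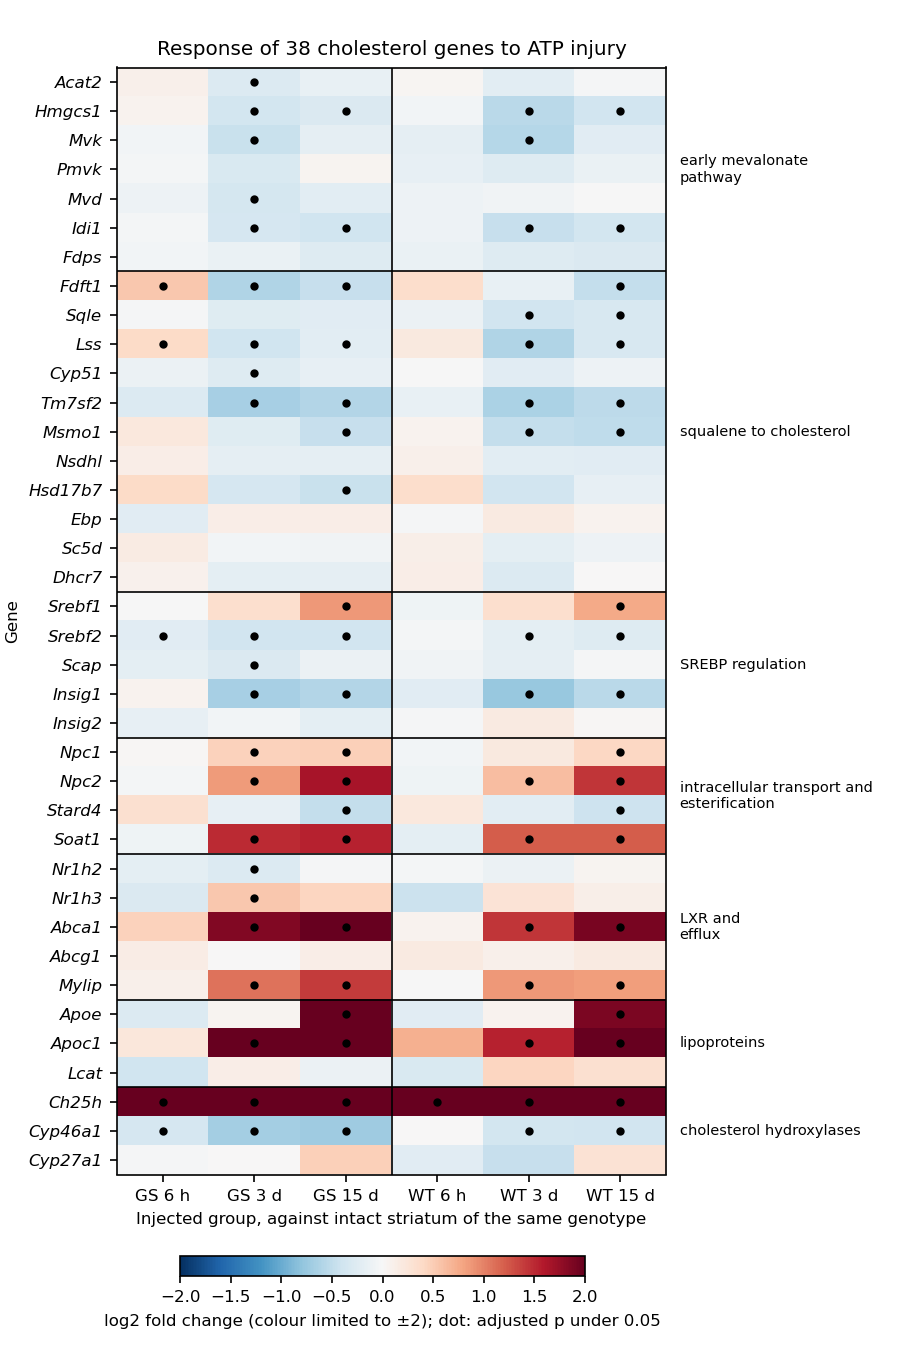
Log2 fold change of the 38 cholesterol genes (rows, grouped by role) for each time after injection over the intact state of that genotype (columns, GS left and WT right), with a dot where the adjusted p was under 0.05. Most cells of the synthesis rows are blue at 3 d and 15 d, and the deepest red cells are Ch25h, Apoc1, Apoe and Abca1.

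RefSeq promoters of GRCm38.p6 were matched by symbol for 31 of the 38 members, 42 promoters in all, each spanning 250 bases before to 50 bases after a gene's start. They were searched on both strands for the sterol regulatory element core TCACNCCAC, for the LXR repeat (2 copies of AGGTCA in the same direction, 4 bases apart), for the NF-Y box CCAAT and for the GC box GGGCGG. No match overlapped a match to another motif in the promoters shown. The 250 bases before the start are printed for 3 genes that fell together (Hmgcs1, Insig1 and Lss) and for 2 that rose (Abca1 and Ch25h), with matches to any of the motifs in capitals on the strand of the gene, where ATTGG is CCAAT and CCGCCC is GGGCGG on the other strand.
Hmgcs1, chr13:119690101-119690350, plus strand: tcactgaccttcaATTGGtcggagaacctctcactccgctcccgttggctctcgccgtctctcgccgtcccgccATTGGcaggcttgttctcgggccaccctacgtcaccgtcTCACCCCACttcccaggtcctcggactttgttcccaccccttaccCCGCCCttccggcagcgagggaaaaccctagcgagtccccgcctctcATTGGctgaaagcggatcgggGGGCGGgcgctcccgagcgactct
Insig1, chr5:28071162-28071411, plus strand: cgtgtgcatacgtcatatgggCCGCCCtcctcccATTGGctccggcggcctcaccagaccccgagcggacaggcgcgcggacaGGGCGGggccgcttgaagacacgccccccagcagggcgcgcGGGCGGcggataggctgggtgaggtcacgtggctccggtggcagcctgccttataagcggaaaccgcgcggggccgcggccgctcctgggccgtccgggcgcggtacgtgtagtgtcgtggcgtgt
Lss, chr10:76531355-76531604, plus strand: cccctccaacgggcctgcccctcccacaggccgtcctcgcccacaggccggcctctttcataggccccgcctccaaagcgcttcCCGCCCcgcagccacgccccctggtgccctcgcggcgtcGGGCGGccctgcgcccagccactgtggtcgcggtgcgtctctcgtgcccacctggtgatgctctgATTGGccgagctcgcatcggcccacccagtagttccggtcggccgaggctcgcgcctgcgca
Abca1, chr4:53159896-53160145, minus strand: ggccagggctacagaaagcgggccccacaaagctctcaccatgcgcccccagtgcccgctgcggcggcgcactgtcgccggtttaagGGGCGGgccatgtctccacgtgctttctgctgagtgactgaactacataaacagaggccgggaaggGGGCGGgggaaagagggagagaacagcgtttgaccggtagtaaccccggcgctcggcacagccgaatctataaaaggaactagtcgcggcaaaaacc
Ch25h, chr19:34475149-34475398, minus strand: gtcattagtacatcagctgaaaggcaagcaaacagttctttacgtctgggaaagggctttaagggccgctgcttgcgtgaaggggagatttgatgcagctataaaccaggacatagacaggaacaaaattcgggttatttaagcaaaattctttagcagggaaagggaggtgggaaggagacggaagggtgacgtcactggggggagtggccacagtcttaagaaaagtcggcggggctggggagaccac

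In the printed stretches Hmgcs1 held 1 sterol core, 3 CCAAT boxes and 2 GC boxes. Insig1 held 1 CCAAT box and 3 GC boxes, and Lss 1 CCAAT box and 2 GC boxes. Abca1 held 2 GC boxes and no other match, and Ch25h held none. Over the whole windows, CCAAT was found in 24 of the 31 members (77.4%), against 41.1% of 27025 genes in the promoter table. The GC box was found in 25 of 31 members (80.7%), against 38.2% of genes. These differences were not tested. The 27025 genes were not limited to those measured here, and they had 32851 promoters, where the 31 members had 42. The sterol core was found in 1 of 31 members (3.23%), against 1.44% of genes, and the LXR repeat in 0 of 31, against 0.01% of genes. A match describes these letters only, and no match says only that they are not in this window. Repeats or cores that differ from the exact letters were not searched for, so their absence is not shown, for Abca1 and Ch25h as for the rest.

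All synthesis enzymes called at 3 d and 15 d were lower, in both genotypes. Of the 18 enzymes, 9 fell in GS striatum at 3 d (50%) and 7 fell in WT striatum at 3 d (38.9%). At 15 d 7 fell in each genotype (38.9%), and none rose at either time. Of all tested genes, 16.4% fell in GS and 12.7% in WT at 3 d, and 17.6% in GS and 11.2% in WT at 15 d. The log2 fold change was below 0 for 17 of 18 enzymes at 3 d in each genotype and for 16 of 18 at 15 d. Its median was -0.29 in GS and -0.26 in WT at 3 d, and -0.21 in GS and -0.22 in WT at 15 d. At 6 h 2 enzymes, Fdft1 and Lss, rose in GS striatum (11.1%), where 7.47% of all tested genes rose, so this share lies near the background. In WT striatum at 6 h 0 of 18 were called in edgeR, where 2.54% of all tested genes rose and 1.55% fell. In WT at 6 h 3 enzymes had an unadjusted p under 0.05, as had 3841 of the 18813 tested genes.

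Hmgcs1 makes HMG-CoA, the substrate of the rate-limiting reductase of the pathway. It had 133 and 129 CPM in intact GS striatum, 142 and 134 at 6 h, 102 and 100.2 at 3 d, and 110.0 and 105 at 15 d. It had 148 and 130.2 CPM in intact WT striatum, 133 and 135 at 6 h, 99.0 and 93.3 at 3 d, and 110.2 and 103 at 15 d. The libraries of 3 d and 15 d lay below every intact and 6 h library in both genotypes. The log2 fold change at 3 d was -0.37 ± 0.0695 (adjusted p = 0.000865) in GS and -0.53 ± 0.0696 (adjusted p = 0.000127) in WT, and at 15 d it was -0.28 ± 0.0694 (adjusted p = 0.00513) in GS and -0.38 ± 0.0695 (adjusted p = 0.00126) in WT. The GS call at 15 d was lost without replicate 2 of GS 15 d (adjusted p = 0.0535).

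Mvk, mevalonate kinase, was found at 10.8 and 9.49 CPM in intact GS striatum, 9.23 and 10.2 at 6 h, 7.72 and 7.25 at 3 d, and 8.84 and 9.12 at 15 d. It was found at 10.6 and 10.0 CPM in intact WT striatum, 8.22 and 10.0 at 6 h, 6.08 and 7.81 at 3 d, and 8.36 and 9.30 at 15 d. Its lowest levels were those of the 3 d libraries in both genotypes, clear of the intact ones. The change at 3 d was -0.44 ± 0.142 (adjusted p = 0.0270) in GS and -0.57 ± 0.143 (adjusted p = 0.00912) in WT, and at 15 d Mvk was not called. The GS call was lost without replicate 1 of GS intact or either replicate of GS 3 d (adjusted p up to 0.176), and the WT call without replicate 1 of WT intact or replicate 1 of WT 3 d (adjusted p up to 0.0990).

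Idi1, the isomerase of isopentenyl diphosphate, measured 22.4 and 26.0 CPM in intact GS striatum, 24.9 and 22.0 at 6 h, 18.1 and 20.1 at 3 d, and 19.1 and 17.5 at 15 d. It measured 25.2 and 24.0 CPM in intact WT striatum, 22.8 and 23.2 at 6 h, 17.6 and 18.1 at 3 d, and 19.96 and 18.2 at 15 d. All libraries of 3 d and 15 d lay below the intact libraries of their genotype. The change was -0.34 ± 0.0991 (adjusted p = 0.0150) in GS and -0.46 ± 0.0992 (adjusted p = 0.00383) in WT at 3 d, and -0.40 ± 0.0993 (adjusted p = 0.00533) in GS and -0.37 ± 0.0993 (adjusted p = 0.0151) in WT at 15 d. Leaving out 1 library ended 3 of these calls. That of GS at 3 d was lost without replicate 2 of GS intact or replicate 1 of GS 3 d (adjusted p up to 0.157), that of GS at 15 d without replicate 2 of GS intact or replicate 2 of GS 15 d (adjusted p up to 0.0749), and that of WT at 15 d without replicate 1 of WT intact or replicate 2 of WT 15 d (adjusted p up to 0.128).

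Among the other early enzymes, Acat2, a thiolase that makes acetoacetyl-CoA, fell in GS striatum at 3 d, with a log2 fold change of -0.28 ± 0.0893 (adjusted p = 0.0248) and 25.1 and 22.2 CPM at 3 d and 29.8 and 27.8 CPM intact. Mvd, the decarboxylase, fell there too, with a log2 fold change of -0.36 ± 0.131 (adjusted p = 0.0475) and 9.74 and 7.78 CPM at 3 d and 11.5 and 10.9 CPM intact. Neither gene was called in WT striatum, and the call of Acat2 was lost without replicate 1 of GS intact or replicate 2 of GS 3 d (adjusted p up to 0.196) and that of Mvd without either replicate of GS intact or replicate 2 of GS 3 d (adjusted p up to 0.340). Pmvk, phosphomevalonate kinase, and Fdps, which makes farnesyl diphosphate, were called at no time, with log2 fold changes from -0.30 (Pmvk, GS at 3 d) to 0.06 (Pmvk, GS at 15 d).

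Fdft1, squalene synthase, which commits the pathway to sterols, had 70.6 and 82.4 CPM in intact GS striatum, 112 and 109.5 at 6 h, 55.2 and 45.1 at 3 d, and 56.2 and 54.5 at 15 d. It had 76.9 and 70.2 CPM in intact WT striatum, 86.4 and 101 at 6 h, 78.0 and 54.7 at 3 d, and 52.7 and 53.1 at 15 d. Its highest libraries were those of 6 h in both genotypes, and its 15 d libraries lay below all intact ones. The change at 6 h was 0.53 ± 0.136 (adjusted p = 0.0188) in GS and 0.35 ± 0.137 (adjusted p = 0.164) in WT. At 3 d it was -0.61 ± 0.138 (adjusted p = 0.00349) in GS and -0.15 ± 0.137 (adjusted p = 0.454) in WT, where the 2 replicates differed widely and overlapped the intact level. At 15 d it was -0.47 ± 0.137 (adjusted p = 0.0156) in GS and -0.47 ± 0.138 (adjusted p = 0.0211) in WT. Of these calls, the GS rise at 6 h was lost without replicate 1 of GS intact or either replicate of GS 6 h (adjusted p up to 0.147), the GS falls without replicate 2 of GS 3 d (adjusted p = 0.0592) at 3 d and replicate 2 of GS intact or either replicate of GS 15 d (adjusted p up to 0.131) at 15 d, and the WT fall at 15 d without replicate 1 of WT intact or either replicate of WT 15 d (adjusted p up to 0.133). Exons of Fdft1 share 18.3% of their length with Ctsb on the opposite strand, and whether reads were counted by strand is unknown here.

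Lss, lanosterol synthase, which closes the sterol ring, was at 35.6 and 34.5 CPM in intact GS striatum, 46.5 and 45.4 at 6 h, 26.2 and 27.3 at 3 d, and 29.4 and 31.0 at 15 d. It was at 41.5 and 36.7 CPM in intact WT striatum, 42.7 and 46.6 at 6 h, 26.1 and 25.6 at 3 d, and 32.4 and 29.9 at 15 d. As with Fdft1, the GS libraries of 6 h stood above all GS libraries of the other stages, and those of 3 d and 15 d stood below all intact ones. The change at 6 h was 0.39 ± 0.0770 (adjusted p = 0.00474) in GS and 0.19 ± 0.0769 (adjusted p = 0.176) in WT. At 3 d the change was -0.39 ± 0.0778 (adjusted p = 0.00142) in GS and -0.60 ± 0.0778 (adjusted p = 0.000129) in WT, and at 15 d it was -0.22 ± 0.0776 (adjusted p = 0.0407) in GS and -0.33 ± 0.0775 (adjusted p = 0.00703) in WT. The GS call at 6 h was lost without replicate 2 of GS intact (adjusted p = 0.0554), the GS call at 15 d without any one of the 4 libraries compared (adjusted p up to 0.203), and the WT call at 15 d without replicate 1 of WT intact or replicate 2 of WT 15 d (adjusted p up to 0.100). Both calls at 3 d remained in every fit that left out 1 library.

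Tm7sf2, a sterol reductase late in the pathway, had the lowest log2 fold change of the 18 enzymes at 3 d in both genotypes. Its levels were 10.5 and 9.36 CPM in intact GS striatum, 7.49 and 8.94 at 6 h, 6.27 and 6.28 at 3 d, and 6.95 and 6.20 at 15 d. They were 11.1 and 9.16 CPM in intact WT striatum, 9.22 and 9.13 at 6 h, 6.60 and 6.44 at 3 d, and 7.52 and 6.53 at 15 d. Every library of 3 d and 15 d lay below every intact library. The log2 fold change at 3 d was -0.66 ± 0.138 (adjusted p = 0.00202) in GS and -0.64 ± 0.137 (adjusted p = 0.00370) in WT, and at 15 d -0.59 ± 0.138 (adjusted p = 0.00377) in GS and -0.53 ± 0.138 (adjusted p = 0.0118) in WT. The WT call at 3 d was lost without replicate 1 of WT intact (adjusted p = 0.0621) and that at 15 d without replicate 1 of WT intact or replicate 2 of WT 15 d (adjusted p up to 0.139). Tm7sf2 shares 12.1% of its exon length with Vps51 on the same strand.

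Msmo1, a methyl sterol oxidase, had 61.8 and 70.9 CPM in intact GS striatum, 79.9 and 74.02 at 6 h, 54.0 and 58.5 at 3 d, and 50.7 and 46.1 at 15 d. It had 72.5 and 72.0 CPM in intact WT striatum, 75.8 and 76.5 at 6 h, 54.9 and 48.5 at 3 d, and 55.8 and 45.9 at 15 d. The 15 d libraries were the lowest in GS, and in WT those of 3 d and 15 d overlapped each other below the intact level. At 15 d Msmo1 fell, with a log2 fold change of -0.45 ± 0.0971 (adjusted p = 0.00208) in GS and -0.51 ± 0.0970 (adjusted p = 0.00186) in WT. At 3 d the change was -0.24 ± 0.0967 (adjusted p = 0.0693) in GS and -0.48 ± 0.0968 (adjusted p = 0.00239) in WT.

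Of the remaining later enzymes, Sqle, squalene epoxidase, was called lower in WT striatum, with log2 fold changes of -0.39 ± 0.0970 (adjusted p = 0.00919) at 3 d and -0.31 ± 0.0971 (adjusted p = 0.0288) at 15 d. In GS, where it was not called, the values were -0.25 ± 0.0972 at 3 d and -0.22 ± 0.0972 at 15 d, and the difference between the genotypes was called at no time. The WT calls of Sqle were lost without replicate 1 of WT intact or replicate 1 of WT 3 d (adjusted p up to 0.126) at 3 d and without replicate 1 of WT intact or replicate 2 of WT 15 d (adjusted p up to 0.259) at 15 d. Cyp51, lanosterol demethylase, fell in GS at 3 d (-0.26 ± 0.0888), and Hsd17b7, a ketosteroid reductase, fell in GS at 15 d (-0.44 ± 0.139). The call of Cyp51 was lost without any one of the 4 libraries compared (adjusted p up to 0.143), and that of Hsd17b7 without replicate 2 of GS intact or either replicate of GS 15 d (adjusted p up to 0.131). Nsdhl, Ebp, Sc5d and Dhcr7, which carry out late steps on the sterol nucleus, were called at no time. Ebp alone of the 18 enzymes had a positive log2 fold change at 3 d, 0.13 ± 0.1096 in GS and 0.18 ± 0.1103 in WT.

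**Figure D2:**
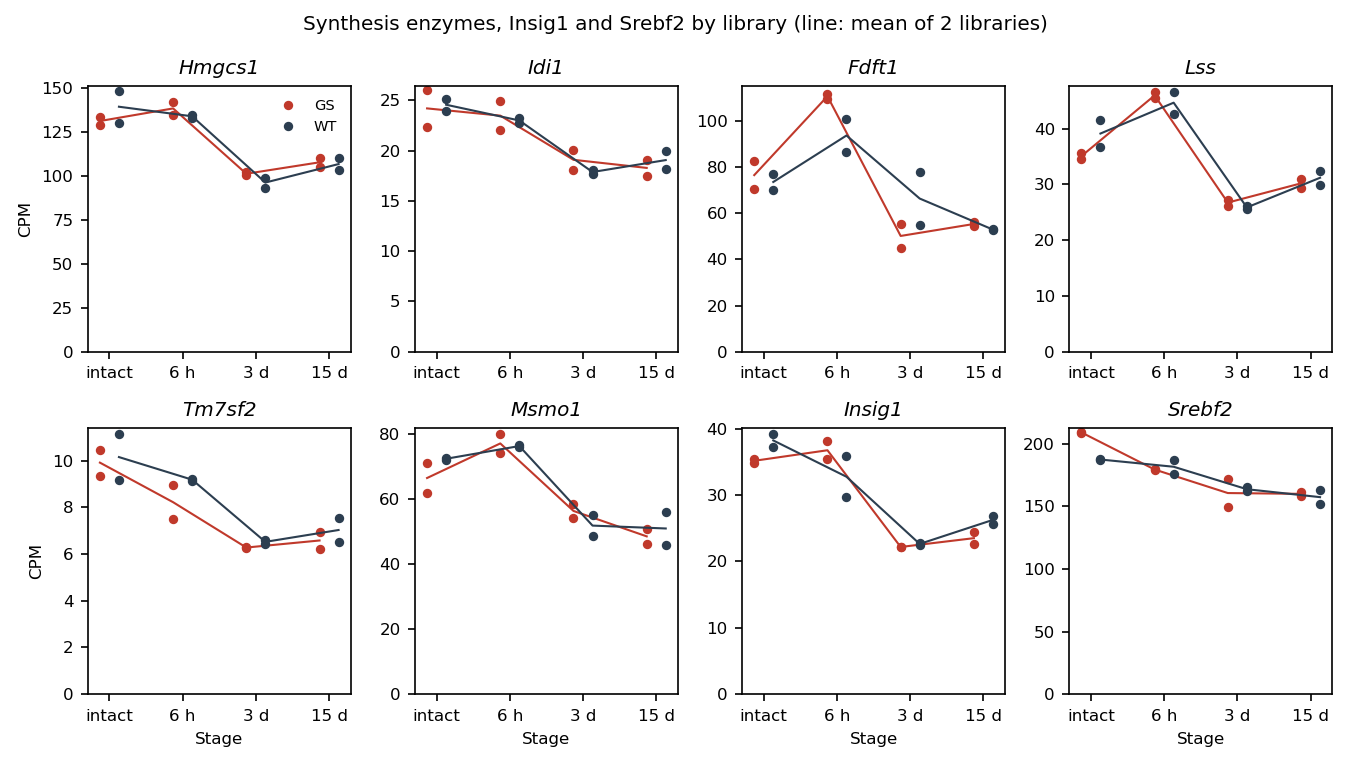
CPM of 6 synthesis enzymes, Insig1 and Srebf2 (one panel each, vertical axis from 0) in each library at the 4 stages, GS in red on the left and WT in dark blue on the right of each stage, with lines through the means of 2 libraries. Levels at 3 d and 15 d lie below intact levels in most panels, and Fdft1 and Lss peak at 6 h.

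Cortical markers moved with the WT libraries used in these comparisons. The summed level of the 8 cortical markers was 164.2 and 133 CPM in WT 3 d libraries and 174.5 and 125.2 CPM in WT 15 d libraries, against 332.6 and 168.4 CPM in intact WT striatum. In GS striatum it was 125.7 and 134.2 CPM at 3 d, and at 15 d 128.3 and 114.2 CPM, against 191.6 and 181.9 CPM intact. Of the 8 markers, 5 fell in WT at 3 d and 1 fell and 1 rose in GS at 3 d. Without WT intact replicate 1, the count of synthesis enzymes that fell in WT was 4 at 3 d and 2 at 15 d, where it was 7 at both times with all libraries. Without the WT replicate higher in these markers in 3 groups (replicate 1 of intact, replicate 2 of 6 h and replicate 1 of 15 d, the last high only against the other 15 d replicate) it was 3 at 3 d and 2 at 15 d. With the marker level as a covariate it was 6 in GS and 3 in WT at 3 d, and 4 in GS and 5 in WT at 15 d. Over all single libraries left out, the count ran from 4 to 8 in GS and from 4 to 9 in WT at 3 d, and from 2 to 6 in GS and from 2 to 7 in WT at 15 d. It was 4 in GS at 3 d without GS 3 d replicate 2. In GS at 15 d it was 3, 4 and 2 without GS intact replicate 2, GS 15 d replicate 1 and GS 15 d replicate 2, and in WT at 15 d it was 2 without WT 15 d replicate 2. The part of cortical tissue in the WT result was otherwise not tested.

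Genes of SREBP regulation moved in both directions. Insig1 and Srebf2 fell at 3 d and 15 d in both genotypes, Srebf1 rose at 15 d in both, and Insig2, which like Insig1 retains the complex, was called at no time, with log2 fold changes from -0.19 in GS at 15 d to 0.18 in WT at 3 d.

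Insig1, which retains the SREBP complex and is itself a target of SREBP, had the largest fall of the 5. It had 34.8 and 35.5 CPM in intact GS striatum, 35.3 and 38.1 at 6 h, 22.1 and 22.2 at 3 d, and 24.4 and 22.6 at 15 d. It had 39.2 and 37.2 CPM in intact WT striatum, 29.7 and 35.8 at 6 h, 22.7 and 22.5 at 3 d, and 25.7 and 26.8 at 15 d. Each library of 3 d and 15 d lay below each intact and 6 h library of its genotype. Set against intact striatum, the change at 3 d was -0.67 ± 0.0873 (adjusted p = 6.61e-05) in GS and -0.76 ± 0.0871 (adjusted p = 5.71e-05) in WT, and at 15 d it was -0.58 ± 0.0871 (adjusted p = 0.000151) in GS and -0.54 ± 0.0869 (adjusted p = 0.000553) in WT. All 4 calls remained whichever library was left out.

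Srebf2 encodes SREBP-2, the main activator of the synthesis enzymes. It stood at 209 and 209 CPM in intact GS striatum, 180.0 and 179 at 6 h, 172 and 149 at 3 d, and 162 and 158 at 15 d. It stood at 188 and 187 CPM in intact WT striatum, 176 and 187 at 6 h, 166 and 162 at 3 d, and 152 and 163 at 15 d. The falls were small, and intact libraries stood above those of 3 d and 15 d in both genotypes. The change was -0.38 ± 0.0690 (adjusted p = 0.000743) in GS and -0.20 ± 0.0690 (adjusted p = 0.0484) in WT at 3 d, and -0.39 ± 0.0690 (adjusted p = 0.000589) in GS and -0.25 ± 0.0691 (adjusted p = 0.0158) in WT at 15 d. At 6 h it was -0.22 ± 0.0689 (adjusted p = 0.0467) in GS and -0.05 ± 0.0689 (adjusted p = 0.769) in WT. The calls in GS at 6 h and in WT at 3 d were lost without any one of the 4 libraries compared (adjusted p up to 0.187 and 0.174), and that of WT at 15 d was lost without either replicate of WT intact or replicate 1 of WT 15 d (adjusted p up to 0.0971).

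Srebf1 encodes SREBP-1, whose main targets are genes of fatty acid synthesis and which LXR also induces. It had 57.1 and 52.5 CPM in intact GS striatum, 51.8 and 57.4 at 6 h, 72.2 and 66.1 at 3 d, and 94.5 and 106 at 15 d. It had 52.9 and 58.3 CPM in intact WT striatum, 50.8 and 53.8 at 6 h, 64.8 and 75.4 at 3 d, and 78.3 and 109 at 15 d. It ran against Srebf2, with 15 d libraries above all intact and 6 h libraries in both genotypes. The change at 15 d was 0.87 ± 0.127 (adjusted p = 0.000122) in GS and 0.75 ± 0.127 (adjusted p = 0.000801) in WT, and at 3 d it was 0.34 ± 0.127 (adjusted p = 0.0517) in GS and 0.34 ± 0.126 (adjusted p = 0.0625) in WT. Scap, the escort protein of SREBP, fell in GS striatum at 3 d, with a log2 fold change of -0.29 ± 0.0728 (adjusted p = 0.00701) and 81.4 and 71.9 CPM at 3 d and 96.6 and 90.7 CPM intact, and was not called in WT. That call was lost without replicate 1 of GS intact or replicate 2 of GS 3 d (adjusted p up to 0.0884).

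Genes that free cholesterol from lysosomes or store it as ester rose. Npc2 and Soat1 were higher at 3 d and 15 d in both genotypes and Npc1 at 15 d in both and at 3 d in GS, while Stard4 was lower at 15 d in both.

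Npc2, the soluble lysosomal protein that binds cholesterol, had 56.2 and 56.0 CPM in intact GS striatum, 53.9 and 55.3 at 6 h, 94.9 and 107 at 3 d, and 157 and 194 at 15 d. It had 52.2 and 51.0 CPM in intact WT striatum, 47.7 and 50.1 at 6 h, 66.2 and 92.7 at 3 d, and 114 and 165 at 15 d. The levels of 3 d lay above the intact ones and those of 15 d above those of 3 d, without overlap in either genotype. The change at 3 d was 0.85 ± 0.160 (adjusted p = 0.000968) in GS and 0.62 ± 0.160 (adjusted p = 0.0106) in WT, and at 15 d it was 1.65 ± 0.162 (adjusted p = 6.01e-06) in GS and 1.44 ± 0.162 (adjusted p = 4.87e-05) in WT. The WT call at 3 d was lost without either replicate of WT intact or replicate 2 of WT 3 d (adjusted p up to 0.148). Npc1, the membrane protein that receives cholesterol from Npc2, moved less, to 109 and 106 CPM in GS at 15 d, against 76.4 and 77.3 CPM in intact GS striatum, and to 91.4 and 111 CPM in WT at 15 d, against 72.2 and 79.6 CPM in intact WT striatum. Before that, at 6 h, it had 76.3 and 79.1 CPM in GS and 74.1 and 72.7 in WT, and at 3 d 98.7 and 112 in GS and 79.2 and 94.1 in WT. Its groups did not overlap with intact striatum at 15 d. The change of Npc1 was 0.46 ± 0.0969 (adjusted p = 0.00223) in GS and 0.19 ± 0.0970 (adjusted p = 0.162) in WT at 3 d, and 0.48 ± 0.0969 (adjusted p = 0.00144) in GS and 0.41 ± 0.0970 (adjusted p = 0.00681) in WT at 15 d. The WT call was lost without replicate 1 of WT intact or replicate 2 of WT 15 d (adjusted p up to 0.109).

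Soat1 esterifies cholesterol for storage in lipid droplets. It had 19.6 and 20.1 CPM in intact GS striatum, 19.8 and 17.7 at 6 h, 47.4 and 64.1 at 3 d, and 53.5 and 62.8 at 15 d. It had 18.5 and 21.6 CPM in intact WT striatum, 17.95 and 17.1 at 6 h, 41.9 and 50.9 at 3 d, and 41.4 and 51.9 at 15 d. Levels of 3 d and 15 d overlapped each other, and none overlapped the intact or 6 h levels. At 3 d the change was 1.49 ± 0.149 (adjusted p = 1.10e-05) in GS and 1.21 ± 0.148 (adjusted p = 8.26e-05) in WT, and at 15 d it was 1.55 ± 0.149 (adjusted p = 5.13e-06) in GS and 1.22 ± 0.149 (adjusted p = 8.55e-05) in WT. All 4 calls remained whichever library was left out, and the change between 3 d and 15 d was 0.06 ± 0.143 in GS and 0.01 ± 0.144 in WT.

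Stard4, a carrier of cholesterol through the cytosol and a target of SREBP-2, moved the other way. It had 17.1 and 17.4 CPM in intact GS striatum, 23.1 and 19.99 at 6 h, 13.9 and 16.8 at 3 d, and 13.3 and 11.6 at 15 d. It had 18.8 and 16.3 CPM in intact WT striatum, 19.6 and 21.1 at 6 h, 17.0 and 13.4 at 3 d, and 14.1 and 12.3 at 15 d. The 15 d libraries were below all intact ones in both genotypes. The change at 15 d was -0.47 ± 0.137 (adjusted p = 0.0148) in GS and -0.41 ± 0.137 (adjusted p = 0.0395) in WT. The GS call was lost without either replicate of GS intact or replicate 2 of GS 15 d (adjusted p up to 0.129), and the WT call without replicate 1 of WT intact or replicate 2 of WT 15 d (adjusted p up to 0.252).

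Among genes of LXR signalling and efflux, the transporter Abca1 and the ubiquitin ligase Mylip rose at 3 d and 15 d in both genotypes, while the transporter Abcg1 was called at no time. The 2 receptors were called at 3 d in GS alone, in opposite directions.

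Abca1 passes cholesterol and phospholipid to lipid-poor apolipoproteins. It had 56.6 and 49.6 CPM in intact GS striatum, 69.2 and 76.4 at 6 h, 159 and 223 at 3 d, and 219.6 and 279 at 15 d. It had 56.3 and 55.8 CPM in intact WT striatum, 56.8 and 60.8 at 6 h, 123 and 179 at 3 d, and 185 and 231 at 15 d. The libraries of 3 d and 15 d lay above all intact and 6 h libraries in both genotypes. The log2 fold change at 3 d was 1.84 ± 0.182 (adjusted p = 1.01e-05) in GS and 1.43 ± 0.180 (adjusted p = 0.000100) in WT, and at 15 d it was 2.23 ± 0.184 (adjusted p = 2.42e-06) in GS and 1.89 ± 0.182 (adjusted p = 1.85e-05) in WT. At 6 h it was 0.45 ± 0.179 (adjusted p = 0.109) in GS and 0.07 ± 0.179 (adjusted p = 0.872) in WT. All 4 calls at 3 d and 15 d remained whichever library was left out.

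Mylip marks receptors of the LDL receptor family for degradation and is a target of LXR. Its level was 12.1 and 9.44 CPM in intact GS striatum, 13.1 and 10.0 at 6 h, 20.5 and 25.5 at 3 d, and 25.2 and 31.9 at 15 d. It was 11.2 and 10.3 CPM in intact WT striatum, 10.1 and 11.3 at 6 h, 18.02 and 21.4 at 3 d, and 16.7 and 21.9 at 15 d. Its levels of 3 d and 15 d overlapped each other and cleared the intact and 6 h levels. Set against intact striatum, the change at 3 d was 1.09 ± 0.180 (adjusted p = 0.000372) in GS and 0.87 ± 0.180 (adjusted p = 0.00288) in WT, and at 15 d it was 1.402 ± 0.181 (adjusted p = 4.81e-05) in GS and 0.84 ± 0.181 (adjusted p = 0.00383) in WT. The WT call at 15 d was lost without replicate 2 of WT 15 d (adjusted p = 0.0594).

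Abcg1, which exports cholesterol to formed lipoprotein particles, stayed between 0.00 and 0.18 in log2 fold change over the 6 injury comparisons, with 106 and 115 CPM in GS at 15 d, against 100.3 and 102 CPM in intact GS striatum, and 100.5 and 109 CPM in WT at 15 d, against 87.1 and 97.5 CPM in intact WT striatum. Nr1h3, LXR alpha, had 3.35 and 3.72 CPM in GS at 3 d, against 2.53 and 2.33 CPM intact, a log2 fold change of 0.54 ± 0.201 (adjusted p = 0.0494). Nr1h2, LXR beta, had 41.0 and 32.2 CPM in GS at 3 d, against 44.0 and 44.3 CPM intact, a log2 fold change of -0.27 ± 0.0987 (adjusted p = 0.0469). Neither receptor was called elsewhere after injury. The call of Nr1h3 was lost without any one of the 4 libraries compared (adjusted p up to 0.197), and that of Nr1h2 without either replicate of GS intact or replicate 2 of GS 3 d (adjusted p up to 0.443). Both were also lost with RLE size factors, without the filter on low counts and with only the groups compared in the model.

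**Figure D3:**
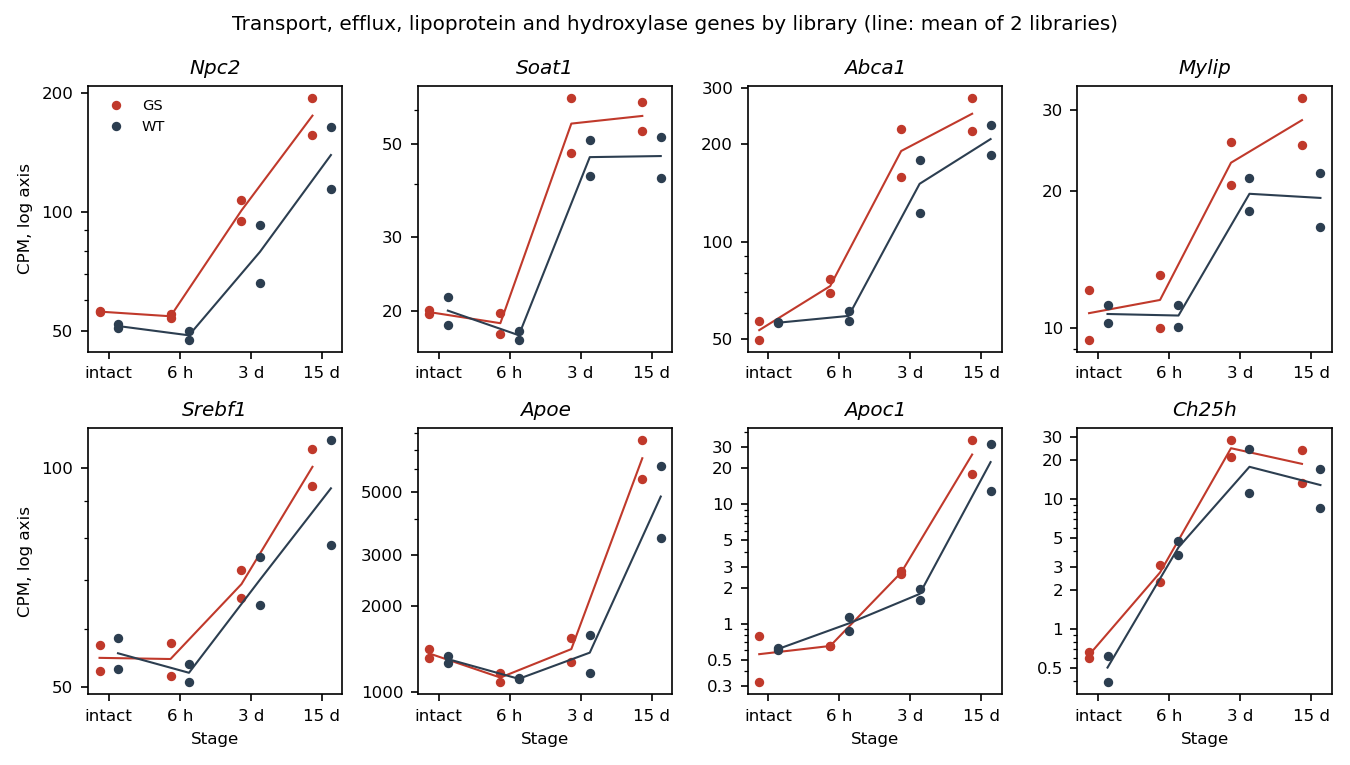
CPM on a log axis of 8 genes of transport, storage, efflux, lipoproteins and hydroxylation in each library at the 4 stages, GS in red on the left and WT in dark blue on the right of each stage, with lines through the means of 2 libraries. Soat1, Abca1, Mylip and Ch25h are up by 3 d, Apoe is up at 15 d alone, and Apoc1 climbs at both times.

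Both apolipoproteins rose: Apoe at 15 d, and Apoc1 at 3 d and 15 d. Apoe, the main apolipoprotein of the brain, had 1412 and 1320 CPM in intact GS striatum, 1087 and 1166 at 6 h, 1552 and 1278 at 3 d, and 5531 and 7539 at 15 d. It had 1269 and 1343 CPM in intact WT striatum, 1118 and 1112 at 6 h, 1170 and 1581 at 3 d, and 3452 and 6162 at 15 d. Levels at 3 d overlapped the intact ones, and levels at 15 d were far above every other library. The change at 3 d was 0.05 ± 0.211 (adjusted p = 0.877) in GS and 0.07 ± 0.211 (adjusted p = 0.831) in WT. At 15 d it was 2.26 ± 0.221 (adjusted p = 5.76e-06) in GS and 1.88 ± 0.218 (adjusted p = 5.98e-05) in WT, and both calls remained whichever library was left out.

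Apoc1, a small apolipoprotein encoded beside Apoe on chromosome 7, was scarce in intact striatum. It had 0.786 and 0.325 CPM in intact GS striatum, 0.656 and 0.646 at 6 h, 2.74 and 2.62 at 3 d, and 17.9 and 34.2 at 15 d. It had 0.623 and 0.601 CPM in intact WT striatum, 1.14 and 0.866 at 6 h, 1.59 and 1.96 at 3 d, and 12.9 and 32.2 at 15 d. Each later stage cleared the one before it from 6 h onward, in both genotypes. At 3 d the change was 2.27 ± 0.484 (adjusted p = 0.00234) in GS and 1.53 ± 0.495 (adjusted p = 0.0329) in WT, and at 15 d it was 5.55 ± 0.474 (adjusted p = 2.89e-06) in GS and 5.19 ± 0.469 (adjusted p = 1.14e-05) in WT. The WT call at 3 d was lost without any one of the 4 libraries compared (adjusted p up to 0.144), and limma-voom called Apoc1 at 3 d in neither genotype. Lcat, which esterifies cholesterol in lipoproteins, was called at no time, with log2 fold changes from -0.40 in GS at 6 h to 0.43 in WT at 3 d.

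Hydroxylases of cholesterol moved in opposite directions. Ch25h, which makes 25-hydroxycholesterol and is known as an interferon-induced gene of macrophages, was the one member that rose at all 3 times in both genotypes. It had 0.667 and 0.599 CPM in intact GS striatum, 3.13 and 2.31 at 6 h, 20.9 and 28.2 at 3 d, and 13.3 and 24.0 at 15 d. It had 0.392 and 0.620 CPM in intact WT striatum, 4.77 and 3.72 at 6 h, 11.1 and 24.3 at 3 d, and 8.54 and 17.1 at 15 d. No injected library overlapped an intact one. The change at 6 h was 2.11 ± 0.508 (adjusted p = 0.0141) in GS and 3.07 ± 0.518 (adjusted p = 0.00678) in WT, and at 3 d it was 5.27 ± 0.482 (adjusted p = 7.69e-06) in GS and 5.13 ± 0.499 (adjusted p = 2.19e-05) in WT. At 15 d it was 4.87 ± 0.480 (adjusted p = 6.01e-06) in GS and 4.66 ± 0.500 (adjusted p = 3.55e-05) in WT. At 6 h, where the level is low, the GS call was lost without either replicate of GS intact or replicate 1 of GS 6 h (adjusted p up to 0.106) and the WT call without replicate 1 of WT intact (adjusted p = 0.0826), and limma-voom called neither.

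Cyp46a1, the neuronal 24-hydroxylase, fell. It had 301 and 307 CPM in intact GS striatum, 238 and 244 at 6 h, 204 and 175 at 3 d, and 182 and 190.3 at 15 d. It had 259 and 242 CPM in intact WT striatum, 256 and 248.9 at 6 h, 199 and 189 at 3 d, and 188 and 194 at 15 d. In GS every injected library lay below the intact ones, and in WT this held at 3 d and 15 d. The change at 6 h was -0.34 ± 0.0709 (adjusted p = 0.00691) in GS and 0.01 ± 0.0709 (adjusted p = 0.965) in WT, and at 3 d -0.68 ± 0.0712 (adjusted p = 1.36e-05) in GS and -0.37 ± 0.0710 (adjusted p = 0.00175) in WT. At 15 d it was -0.71 ± 0.0713 (adjusted p = 6.88e-06) in GS and -0.39 ± 0.0711 (adjusted p = 0.00136) in WT. The GS call at 6 h was lost without replicate 2 of GS intact or replicate 1 of GS 6 h (adjusted p up to 0.0661). Beside this fall, the summed level of 8 projection neuron markers was 6149 and 6271 CPM in GS at 15 d, against 9224 and 10560 CPM in intact GS striatum, and 6657 and 6086 CPM in WT at 15 d, against 7961 and 8639 CPM in intact WT striatum. Of these 8 markers, 5 fell in GS and 0 fell in WT at 6 h, 7 fell in GS and 1 fell in WT at 3 d, and 8 fell in GS and 5 fell in WT at 15 d. Their part in the fall of Cyp46a1 was not tested. Cyp27a1, a mitochondrial sterol hydroxylase, was called at no time, with log2 fold changes from -0.45 in WT at 3 d to 0.48 in GS at 15 d.

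Per kilobase of exon, the list spanned a wide range of levels in intact striatum. Apoe was highest, at 639 CPM per kb in GS and 611 in WT, followed by Cyp46a1 at 92.5 in GS and 76.3 in WT. Hmgcs1 and Srebf2 came next, at 28.5 and 29.1 CPM per kb in GS and 30.3 and 26.1 in WT, an order that differed between the genotypes. Ch25h was lowest, at 0.456 CPM per kb in GS and 0.365 in WT, and Apoc1 was next above it, at 0.747 in GS and 0.823 in WT.

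Between 3 d and 15 d the members called were Apoe, Apoc1 and Npc2 in both genotypes and Srebf1 in GS. Against 3 d, 4 members rose in GS striatum at 15 d (10.5% of the list), where 1.08% of all tested genes rose, and 0 fell, where 1.02% fell. In WT striatum 3 members rose (7.89%), where 1.63% of all tested genes rose, and 0 fell, where 1.57% fell. An unadjusted p under 0.05 was reached by 11 members in GS and 13 in WT, and by 3734 (GS) and 3540 (WT) of the 18813 tested genes. These counts use the 3 d and 15 d libraries already described. Apoe changed by 2.21 ± 0.221 (adjusted p = 0.000340) in GS and 1.81 ± 0.218 (adjusted p = 0.00106) in WT, and Apoc1 by 3.28 ± 0.398 (adjusted p = 0.00168) in GS and 3.66 ± 0.411 (adjusted p = 0.000931) in WT. Npc2 changed by 0.80 ± 0.158 (adjusted p = 0.0232) in GS and 0.81 ± 0.159 (adjusted p = 0.0157) in WT. Srebf1 changed by 0.53 ± 0.126 (adjusted p = 0.0438) in GS and 0.42 ± 0.126 (adjusted p = 0.0853) in WT. Of the 18 synthesis enzymes 0 were called between 3 d and 15 d, with 3 in GS and 5 in WT at an unadjusted p under 0.05. The call of Apoc1 in GS was lost without replicate 2 of GS 3 d (adjusted p = 0.0528), that of Npc2 in GS without either replicate of GS 3 d or replicate 2 of GS 15 d (adjusted p up to 0.260) and in WT without replicate 1 of WT 3 d or replicate 2 of WT 15 d (adjusted p up to 0.144), and that of Srebf1 in GS without replicate 2 of GS 3 d or either replicate of GS 15 d (adjusted p up to 0.312). In GS 1 member was called without GS 3 d replicate 2 and 2 without GS 15 d replicate 2. In WT 6 members were called without WT 3 d replicate 2 and 6 in DESeq2, 3 were called by limma-voom, and 0 were called with only the groups compared in the model.

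Other genes of the pathway, 53 by function, of which 50 were measured, gave a wider view. At 6 h 2 rose and 3 fell in GS, and 2 rose and 2 fell in WT. In GS these were 4% and 6%, where 7.47% of all tested genes rose and 6.37% fell. In WT they were 4% and 4%, where 2.54% rose and 1.55% fell. These shares at 6 h lie near the background. At 3 d 18 rose and 9 fell in GS, and 10 rose and 9 fell in WT. At 15 d 17 rose and 8 fell in GS, and 12 rose and 9 fell in WT. The shares that rose were 36% in GS and 20% in WT at 3 d, where 18.6% (GS) and 14.7% (WT) of all tested genes rose, and 34% in GS and 24% in WT at 15 d, where 19.4% (GS) and 14.2% (WT) rose. The shares that fell were 18% in both genotypes at 3 d, where 16.4% (GS) and 12.7% (WT) of all tested genes fell, and 16% in GS and 18% in WT at 15 d, where 17.6% (GS) and 11.2% (WT) fell.

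Among 8 other synthesis enzymes, Lbr, a nuclear envelope protein with sterol reductase activity, rose in GS (0.52 ± 0.119 at 3 d). Of 10 genes of fatty acid synthesis that SREBP also controls, 2 rose and 3 fell at 3 d in each genotype. At 15 d 3 rose and 2 fell in GS, and 2 rose and 2 fell in WT. Acss2, a source of acetyl-CoA, fell at 3 d, at -0.37 ± 0.0905 in GS and -0.40 ± 0.0906 in WT, while Acaca, acetyl-CoA carboxylase, rose, at 0.27 ± 0.0936 in GS and 0.36 ± 0.0937 in WT.

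Of 4 other LXR targets and lipid droplet genes, 3 rose in GS and 2 rose in WT at 3 d. Plin2, a coat protein of lipid droplets, had the largest change of the 50 other genes at 3 d. It had 5.86 and 5.76 CPM in intact GS striatum, 5.95 and 4.86 at 6 h, 68.9 and 107 at 3 d, and 22.9 and 31.4 at 15 d. It had 3.88 and 5.54 CPM in intact WT striatum, 4.45 and 4.15 at 6 h, 35.5 and 85.2 at 3 d, and 12.8 and 21.6 at 15 d. Libraries of 3 d stood highest and those of 15 d between them and the intact ones. The log2 fold change at 3 d was 3.92 ± 0.377 (adjusted p = 8.99e-06) in GS and 3.68 ± 0.380 (adjusted p = 3.17e-05) in WT, and from 3 d to 15 d it was -1.70 ± 0.334 (adjusted p = 0.0221) in GS and -1.82 ± 0.340 (adjusted p = 0.0123) in WT.

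Lipa, the lysosomal acid lipase that frees cholesterol from esters, rose at 3 d, with log2 fold changes of 1.49 ± 0.231 in GS and 0.96 ± 0.231 in WT. Of 7 lipoprotein receptors and lipases, 2 rose and 1 fell in GS, and 1 rose and 2 fell in WT at that time. Of 13 other sterol carriers measured, 6 rose at 15 d in each genotype, and 2 fell in GS and 3 fell in WT. The largest rise was that of Pltp, which transfers phospholipid, with 1.502 ± 0.230 in GS and 1.26 ± 0.229 in WT. Mbtps1, the site-1 protease that activates SREBP, was higher at 6 h, at 0.48 ± 0.0676 in GS and 0.42 ± 0.0676 in WT, and lower at 3 d, at -0.57 ± 0.0679 in GS and -0.39 ± 0.0678 in WT. Of 5 such processing genes it was the one called at 6 h. Of 3 other sterol hydroxylation genes, 3 rose in GS and 1, Hsd3b7, in WT at 3 d, with 0.64 ± 0.167 in GS and 0.78 ± 0.168 in WT for Hsd3b7.

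No member was called between the genotypes by edgeR. In intact striatum 0 of 38 members were called between GS and WT, where 0.0159% of all tested genes were, and 2 had an unadjusted p under 0.05. At 6 h 0 were called (background 0.00532%) and 0 had an unadjusted p under 0.05. At 3 d 0 were called (background 0.0106%) and at 15 d 0 (background 0.00532%), with 3 at an unadjusted p under 0.05 at each time. Of the 18813 tested genes, 2056 (intact), 1285 (6 h), 1552 (3 d) and 915 (15 d) had an unadjusted p under 0.05. With so few genes called in all, a count of 0 among 38 lies at the background.

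Averaged over the 4 stages, 0 members were called, where 0.0106% of all tested genes were, and 7 had an unadjusted p under 0.05: Ebp, Npc1, Npc2, Soat1, Abca1, Abcg1 and Mylip, named after their values were seen. Of the 18813 tested genes, 1857 had an unadjusted p under 0.05. The differences of the 38 members ran from -0.09 to 0.24, and the 95% intervals had a median half-width of 0.12. Npc2 had the smallest p of the 38, with a difference of 0.24 (95% interval 0.07 to 0.41, adjusted p = 0.402). Its level was 157 and 194 CPM in GS and 114 and 165 CPM in WT at 15 d, where replicates of the genotypes overlapped. At the other stages the GS libraries lay above the WT libraries. In intact striatum Npc2 had 56.2 and 56.0 CPM in GS and 52.2 and 51.0 in WT. At 6 h it had 53.9 and 55.3 CPM in GS and 47.7 and 50.1 in WT. At 3 d it had 94.9 and 107 CPM in GS and 66.2 and 92.7 in WT.

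**Figure D4:**
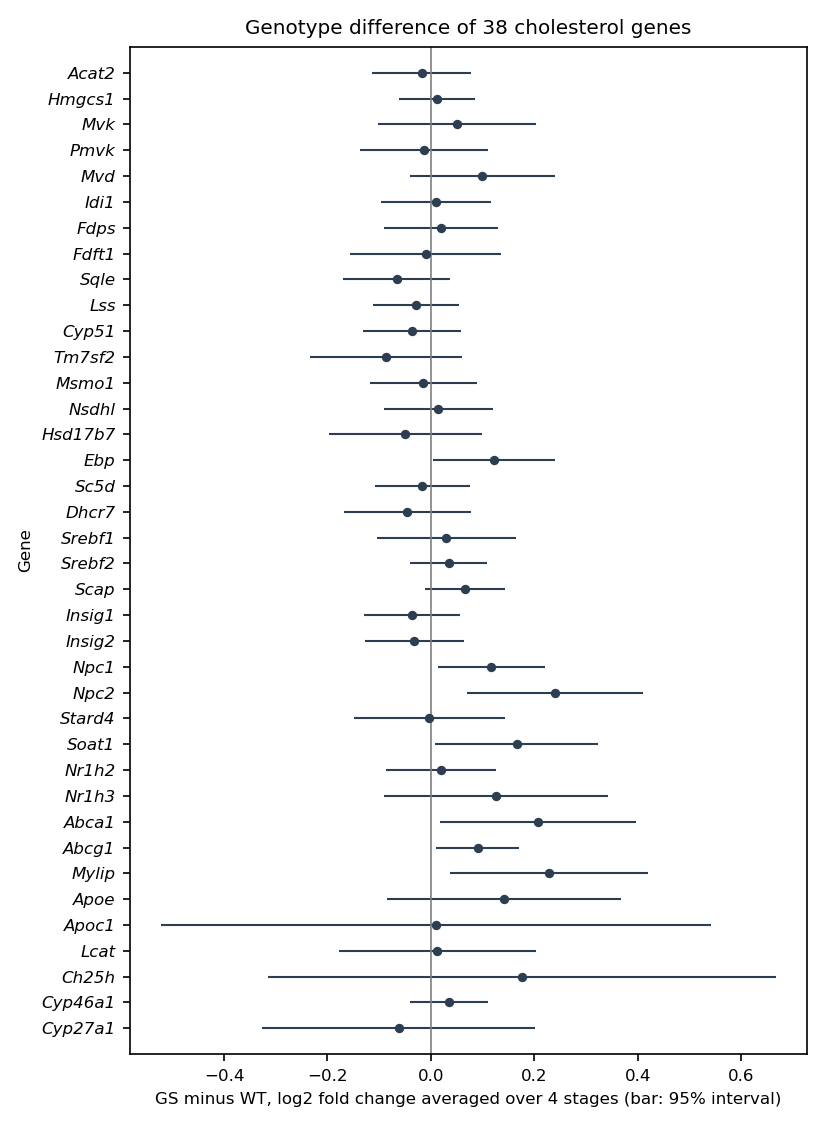
Difference between GS and WT, averaged over the 4 stages, for each of the 38 cholesterol genes as a log2 fold change (horizontal axis, above 0 higher in GS), with 95% intervals. Points lie between -0.09 and 0.24, and most intervals include 0.

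The responses to injury were also compared between the genotypes. The difference of responses gave 0 called members at 6 h (background 0.0106%), 0 at 3 d (background 0%) and 0 at 15 d (background 0%). An unadjusted p under 0.05 was reached by 1772 of the 18813 tested genes at 6 h, 1866 at 3 d and 1028 at 15 d. Of the 38 members, 2 reached it at each time. Cyp46a1 had the smallest p at each, and its log2 difference of responses, GS minus WT, was -0.34 (95% interval -0.56 to -0.13, adjusted p = 0.324) at 6 h, -0.31 (-0.53 to -0.10, adjusted p = 0.439) at 3 d and -0.32 (-0.53 to -0.10, adjusted p = 0.881) at 15 d. These 3 comparisons share the 4 intact libraries. There Cyp46a1 had 301 and 307 CPM in GS and 259 and 242 CPM in WT, which did not overlap, and the log2 difference was 0.28 (95% interval 0.13 to 0.43, adjusted p = 0.232). The 8 projection neuron markers summed to 9224 and 10560 CPM in the intact GS libraries and 7961 and 8639 CPM in the intact WT libraries, and their part in the difference was not tested.

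Other tools gave few more. DESeq2 called Cyp46a1 between intact GS and WT striatum (0.29 ± 0.0755, adjusted p = 0.0220) and in the comparison of responses at 3 d (-0.32 ± 0.107, adjusted p = 0.0484), and called no other member in the 8 comparisons. limma-voom called 0 members in all 8. Without WT 3 d replicate 2, edgeR called Fdft1 between GS and WT at 3 d (-0.64, adjusted p = 0.0410). Fdft1 had 55.2 and 45.1 CPM in GS and 78.0 and 54.7 CPM in WT at 3 d.

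Summed levels of myeloid markers were above intact levels at 3 d and 15 d, as were levels of most members that rose. Markers and members did not match at every step. Ch25h also rose at 6 h, and Apoe rose at 15 d but not at 3 d. Apoe, Apoc1 and Npc2 rose from 3 d to 15 d, where the range of the phagocytic myeloid sum was lower. The 8 microglia markers summed to 431.4 to 454.1 CPM in intact striatum, 315.2 to 351.3 CPM at 6 h, 851.5 to 1549 CPM at 3 d and 1051 to 2145 CPM at 15 d. Of these 8, 8 rose in GS and 7 rose in WT at both 3 d and 15 d. At 6 h 3 of the 8 fell in GS and 2 fell in WT, and 0 rose in either. The 4 measured of 7 markers of phagocytic myeloid cells summed to 11.5 to 13.99 CPM in intact striatum, 11.2 to 17.0 CPM at 6 h, 395.6 to 1624 CPM at 3 d and 178.3 to 720.3 CPM at 15 d, and 4 of 4 rose at 3 d and 15 d in both genotypes. The 3 measured of 5 markers of infiltrating monocytes summed to 3.57 to 5.06 CPM in intact striatum and 3.82 to 9.85 CPM at 6 h. They summed to 43.6 to 175.1 CPM at 3 d and 130 to 474.3 CPM at 15 d. Of these 3, 2 rose in GS and 3 rose in WT at 3 d. At 15 d 2 rose and 1 fell in GS, and 2 rose in WT. Astrocytes and oligodendrocytes make most brain cholesterol. The 6 astrocyte markers summed to 5328 to 6496 CPM at 3 d and 4900 to 5109 CPM in intact striatum, and 4 of 6 rose in GS and 5 of 6 rose in WT at that time. The 5 markers of reactive astrocytes summed to 1334 to 1869 CPM at 3 d and 86.0 to 95.3 CPM in intact striatum. The 10 oligodendrocyte markers summed to 6634 to 8807 CPM at 3 d and 7445 to 7741 CPM in intact striatum, where 2 of 10 rose and 0 fell in GS, and 0 rose and 2 of 10 fell in WT. At 15 d 4 of 10 rose in GS and 3 of 10 rose in WT, and 0 fell in either. Of the 8 projection neuron markers, 7 fell in GS and 1 fell in WT at 3 d, and 8 fell in GS and 5 fell in WT at 15 d. The part of any of these cell types in the fall of the synthesis enzymes was not tested.

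In the 4 groups of 3 d and 15 d, the replicate with the higher microglia sum also had the higher level of Npc2, Soat1, Abca1, Mylip and Ch25h in all 4 groups, and of the other 5 members called only higher (Srebf1, Npc1, Nr1h3, Apoe and Apoc1) in 3 of 4. Of the 16 members called only lower, 0 did so in all 4 groups and 3 did so in 3 groups. Some members called at no time did so as well: Ebp and Dhcr7 in all 4 groups, and Pmvk, Abcg1, Lcat and Cyp27a1 in 3. The rest of those called at no time did so in 2 groups (Sc5d) or 1 (Fdps, Nsdhl and Insig2). This order was not counted over all tested genes, so it does not set the members that rose apart. The replicate with the higher microglia sum was replicate 2 in all 4 groups. Replicate 2 also had the higher sums of phagocytic myeloid, infiltrating monocyte and reactive astrocyte markers in each. The order is thus also that of the replicate numbers, and the groups do not count as separate agreements with microglia. The exception for Apoe was GS at 3 d, with marker sums of 1275 and 1549 CPM and Apoe at 1552 and 1278 CPM. In WT at 3 d the sums were 851.5 and 1316 CPM and Apoe was at 1170 and 1581 CPM, so the replicates had the same order. At 3 d Apoe overlapped its intact level in both genotypes. The part of these cells in the rise of the members was not tested.

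**Figure D5:**
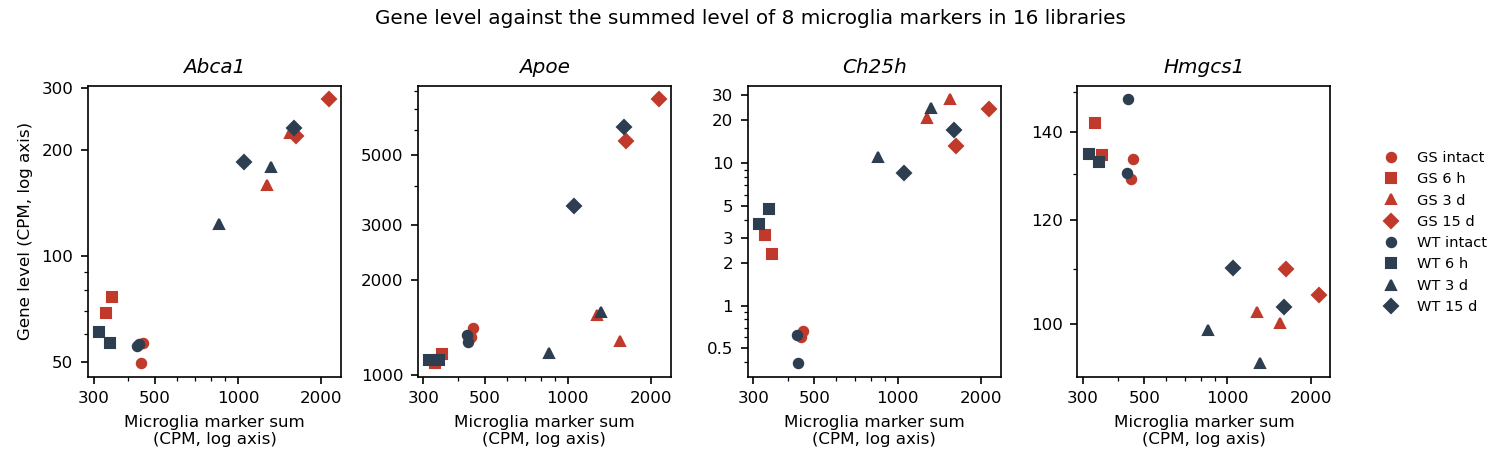
CPM of Abca1, Apoe, Ch25h and Hmgcs1 (vertical axes, log scale) against the summed CPM of 8 microglia markers (horizontal axis, log scale) in the 16 libraries, GS in red and WT in dark blue, with 1 symbol for each stage. The libraries of 3 d and 15 d have sums of 851.5 to 2145 CPM; in them Abca1 is high and Hmgcs1 low throughout, while Apoe is high at 15 d and not at 3 d.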

How the data were processed

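The deposited table gives read counts per gene for 16 RNA-seq libraries of mouse striatum, made, per the labels, with RNeasy and TruSeq kits. The submitters' processing notes name mm10 and FastQC 0.11.7. Which aligner and counter were used, and whether strand was used, is not given in the sources. Each of the 19457 genes had at least 1 count in every library, and the labels call the 2 replicates of a group biological. Columns marked NT were taken as WT by elimination.

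From these counts, edgeR 4.0.16 in R 4.3.3 fitted 1 coefficient for each of 8 groups over all 16 libraries, with TMM factors of 0.947 to 1.03, filterByExpr by group (644 genes removed), 8 residual degrees of freedom and a common biological coefficient of variation of 10.1%. Quasi-likelihood tests were adjusted by the Benjamini-Hochberg method over 18813 genes in each of 16 contrasts, with a threshold of 0.05. The SE is the log2 fold change over the square root of F, and 95% intervals use the t distribution. As alternatives, DESeq2 1.42.0, voom (limma 3.58.1), RLE size factors, no filter, only the groups compared, a replicate block, a cortical marker covariate, and libraries left out were tried. The code was tested on simulated counts. Two-sided tests were used throughout. Promoters were searched in RefSeq's table (GRCm38.p6); a comparison of proteins was not analysed here.

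The members and the lists of other genes and markers were chosen with earlier results of these data known. All 38 members are named. Values in every library are given for those called in both genotypes at the same stage (the 4 with the largest mean change in a role with more), the rest by range and count, and up to 3 other genes per list and contrast are named for the largest called change.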

Additional observations from a re-analysis of the deposited data

How the results depend on the processing

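Of 91 called results (a member in 1 comparison), 90 passed the threshold in DESeq2, 87 each in limma-voom, with RLE size factors and without the filter, 73 with only the groups compared in the model, and 72 each with the cortical marker covariate and without the 3 WT libraries higher in those markers than the other replicate of their group; none reversed. With 1 library left out, 266 of 364 repeats kept their call, and 51 of the 91 results kept it in every repeat. Scaling shifted the median of all genes by at most 0.01.

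Counts of called members moved by more than 1.5 times as follows. For WT at 6 h, where 1 was called, the count was 0 in limma-voom, 3 with only the groups compared and 0 without the 3 WT libraries. For WT at 3 d (16 called) it was 9 with the covariate and 10 without the 3 WT libraries, and for WT at 15 d (20 called) it was 12 without them. For GS at 6 h (5 called) it was 10 with only the groups compared. For the step from 3 d to 15 d in WT (3 called) it was 6 in DESeq2 and 0 with only the groups compared. DESeq2 called 1 member between intact GS and WT and 1 in the comparison of responses at 3 d, where edgeR called 0. The count of synthesis enzymes that fell was 3 in WT at 3 d with the covariate and 3 without the 3 WT libraries, 2 in WT at 15 d without them, 4 in GS at 3 d with only the groups compared, and 4 in GS at 15 d with the covariate. The cause was not tested, apart from the smaller number of libraries in the fits of fewer groups.

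With single libraries left out, the count ran from 1 to 3 (GS 6 h), 14 to 20 (GS 3 d), 14 to 18 (GS 15 d), 0 to 1 (WT 6 h), 10 to 15 (WT 3 d), 12 to 19 (WT 15 d), 1 to 4 (GS step to 15 d), 2 to 6 (WT step to 15 d) and 0 to 1 (GS against WT at 3 d), and it was 0 in each repeat for the other genotype comparisons. For synthesis enzymes it ran from 4 to 8 (GS 3 d), 2 to 6 (GS 15 d), 4 to 9 (WT 3 d) and 2 to 7 (WT 15 d).

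Over all tested genes the replicate numbers showed little pairing. Over 28 pairs of groups, deviations of same-numbered libraries correlated at -0.0991 to 0.174 (median 0.0137). This cannot exclude an order shared by fewer genes. In every group of 3 d and 15 d, replicate 2 had the higher sums of microglia, phagocytic myeloid, infiltrating monocyte and reactive astrocyte markers. With the replicate block 87 of 91 calls remained; Srebf2 (GS 6 h and WT 3 d), Mvd and Nr1h2 (GS 3 d) lost theirs. With 2 libraries per group, differences between genotypes at 1 stage had a median 95% half-width of 0.241 on the log2 scale. Motif shares of members in the 250 bases before the start alone were 77.42% for GC boxes and the same as above for the rest. The protein comparison was not analysed here.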
